A study of Mus musculus with 12 samples.

Results

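The nuclear genes that encode the proteins of the mitochondrial ribosome were followed in open-chromatin maps of differentiating mouse embryoid bodies. Members were all protein-coding genes whose symbol begins with Mrpl or Mrps followed by a digit. The rule gave 78 of the 21627 protein-coding genes on chromosomes 1 to 19 and X, of which 49 carry large-subunit symbols (Mrpl) and 29 small-subunit symbols (Mrps). The symbols are historical: Mrps36 is now known as a component of the 2-oxoglutarate dehydrogenase complex, and it was kept because the rule is by symbol.

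The mitochondrial ribosome translates the few messages of the mitochondrial genome, which encode core subunits of the respiratory chain and of ATP synthase. All of its proteins are made in the cytosol from nuclear genes, imported, and assembled with ribosomal RNAs made inside the organelle. The genes are expressed in nearly every cell type, and their promoters commonly carry sites for ETS-family factors, NRF1 and YY1.

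The study asked how loss of Foxk1, a forkhead transcription factor, affects open chromatin while embryonic stem cells differentiate under mesodermal conditions. ATAC-seq, which inserts sequencing adapters into accessible DNA with the Tn5 transposase, was done on Foxk1 knockout (KO) embryoid bodies at days 3, 5 and 10. The other arm was the iHA-Foxk1 line at days 3 and 5 and embryoid bodies labelled Control at day 10, whose line is not named in the labels. There were 2 libraries in each of the 6 groups, and all 12 were labelled as without doxycycline. Stem cells had been grown on irradiated mouse fibroblasts, which were removed by plating before differentiation. The labels name neither the clone nor separate differentiations, so p-values measure only how far these libraries spread, and that spread may be technical. KO and iHA-Foxk1 are separate lines, so genotype and line cannot be told apart.

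Each library was deposited as a list of peak summits, with 53456 to 59006 summits at day 3, 14519 to 48391 at day 5 and 4028 to 10548 at day 10. The list of iHA-Foxk1 day 5 replicate 1 stood apart with 14519 summits, against 34040 in replicate 2 and 48391 and 42129 in the KO. Both KO day 5 lists name their peaks with D7, so a difference in day and a difference in genotype cannot be told apart there. Peak names at day 10 lack a duplicate-removal tag that the earlier lists carry, and their smallest scores are higher. Of 5 primitive streak and mesoderm marker genes (T, Mixl1, Eomes, Mesp1 and Gsc), 5 had a summit within 1 kb of a gene end in every library of days 3 and 5 except iHA-Foxk1 day 5 replicate 1, where 0 did. At day 10 none of these 5 and none of 5 cardiac markers had one in any of the 4 lists. Of 5 pluripotency markers, 4 had one in every day 3 library, 4 and 5 in KO day 5 and 0 and 2 in iHA-Foxk1 day 5. At day 10 it was 1 in Control replicate 1 and 0 in the other lists. Of 5 fibroblast markers, 4 had one in every day 3 library, 2 to 4 at day 5 and 0 at day 10, and their part in the results was not tested.

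Start-site sequences of 69 of the 78 genes could be matched in RefSeq promoter sequences of GRCm38.p6 (mm10). The 6 shown were chosen because the results turn on them: Mrpl17 had the best-ranked summits, Mrps12 gave the 1 call by day, Mrpl46 and Mrps11 share 1 summit between 2 opposed starts, Mrpl3 had the largest difference between genotypes at day 3, and Mrpl22 had no summit at its annotated ends but 1 at its start. Each runs 5′ to 3′ from 150 bases before the start to 30 bases after its first base. Capitals mark matches, on either strand, to the ETS letters CCGGAAG, the NRF1 core TGCGCA, the YY1 letters AAGATGG, the CCAAT box CCAAT, the GC box GGGCGG, the E-box CACGTG and the forkhead letters GTAAACA.
Mrpl17, chr7:105811058-105811237, minus strand: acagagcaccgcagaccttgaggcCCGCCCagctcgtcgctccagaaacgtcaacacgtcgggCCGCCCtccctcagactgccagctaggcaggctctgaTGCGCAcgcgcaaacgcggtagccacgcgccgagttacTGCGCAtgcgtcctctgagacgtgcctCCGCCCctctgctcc
Mrps12, chr7:28741792-28741971, minus strand: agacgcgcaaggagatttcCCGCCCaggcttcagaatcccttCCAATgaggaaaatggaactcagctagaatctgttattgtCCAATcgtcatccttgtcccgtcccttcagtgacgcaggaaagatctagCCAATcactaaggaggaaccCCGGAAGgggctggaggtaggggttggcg
Mrpl46, chr7:78783060-78783239, minus strand: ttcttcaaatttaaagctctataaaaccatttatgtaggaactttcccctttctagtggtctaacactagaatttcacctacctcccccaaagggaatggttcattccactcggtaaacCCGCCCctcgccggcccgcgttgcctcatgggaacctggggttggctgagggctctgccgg
Mrps11, chr7:78782981-78783160, plus strand: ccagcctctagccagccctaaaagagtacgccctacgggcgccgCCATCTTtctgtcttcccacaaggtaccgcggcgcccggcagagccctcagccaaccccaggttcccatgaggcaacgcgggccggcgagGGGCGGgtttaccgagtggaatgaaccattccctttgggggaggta
Mrpl3, chr9:105053118-105053297, plus strand: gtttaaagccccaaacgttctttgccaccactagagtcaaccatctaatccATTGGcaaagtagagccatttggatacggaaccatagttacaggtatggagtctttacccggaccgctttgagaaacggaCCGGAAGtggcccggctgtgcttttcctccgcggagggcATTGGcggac
Mrpl22, chr11:58171514-58171693, plus strand: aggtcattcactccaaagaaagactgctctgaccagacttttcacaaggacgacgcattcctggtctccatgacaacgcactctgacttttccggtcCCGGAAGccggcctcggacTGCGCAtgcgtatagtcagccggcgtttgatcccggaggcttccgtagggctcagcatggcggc

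The Mrpl46 and Mrps11 stretches overlap on opposite strands, and their GC-box match is the same bases. Over 300 bases around the start, with alternative starts counted separately, CCGGAAG was found in 34.7% of 75 Mrpl and Mrps promoters and in 11.7% of all 21044 promoters. TGCGCA was found in 29.3% against 9.74%, and AAGATGG in 17.3% against 6.28%. The other motifs were at similar shares, with CCAAT in 40.0% against 38.5%, GGGCGG in 52.0% against 46.7% and CACGTG in 9.33% against 7.91%. The forkhead letters GTAAACA, which forkhead factors such as Foxk1 can bind, were found in 2.67% of these promoters, those of Mrpl40 and Mrpl44, and in 3.03% of all promoters. Promoters of the genes had a median GC content of 58.7%, against 56.7% over all promoters, and a median CpG observed-to-expected ratio of 0.82, against 0.574. In 79 promoters of cytosolic ribosomal protein genes, CCGGAAG was found in 31.65%, TGCGCA in 17.7% and AAGATGG in 15.2%. High shares of CCGGAAG and AAGATGG are thus not particular to the Mrpl and Mrps genes. Matches are descriptions of letters and were not tested as sites, and motifs can overlap each other.

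Nearly all of the genes had an accessible site at a gene end at day 3. A summit within 1 kb of either end was found for 74 and 74 of 78 genes in the KO and for 74 and 73 in iHA-Foxk1, against 62.7% to 64.1% of all protein-coding genes. At day 5 the KO libraries again gave 74 and 74 genes, and iHA-Foxk1 gave 62 in its short list and 72 in the other. At day 10, with shorter lists, the numbers were 46 and 29 in Control and 11 and 17 in the KO. Counting only the annotated start, 69 of 69 genes with a start had a summit in 3 of the 4 day 3 libraries and 68 in the other, iHA-Foxk1 replicate 2. A total of 61 genes had a gene-end summit in all 8 libraries of days 3 and 5, which is 78.2% of them against 42.7% of all protein-coding genes. For the 87 genes of cytosolic ribosomal proteins that share was 75.9%.

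Because longer lists hold weaker summits, presence was also compared at equal list lengths. Within the 4028 best-ranked summits of each list, 16 and 10 of the genes were present in KO day 3, 18 and 17 in iHA-Foxk1 day 3, 20 and 17 in KO day 5 and 22 and 20 in iHA-Foxk1 day 5. At day 10, 20 and 18 were present in Control and 11 and 13 in the KO. All protein-coding genes differed in the same direction at day 10, with 15.9% and 15.0% present in Control and 11.2% and 12.2% in the KO. Their share at this length was 14.7% to 14.9% in the day 3 libraries and 17.7% to 18.1% in those of day 5. With 2 libraries against 2, no permutation of the libraries can give a p below 0.333, so these counts were not tested.

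**Figure D1:**
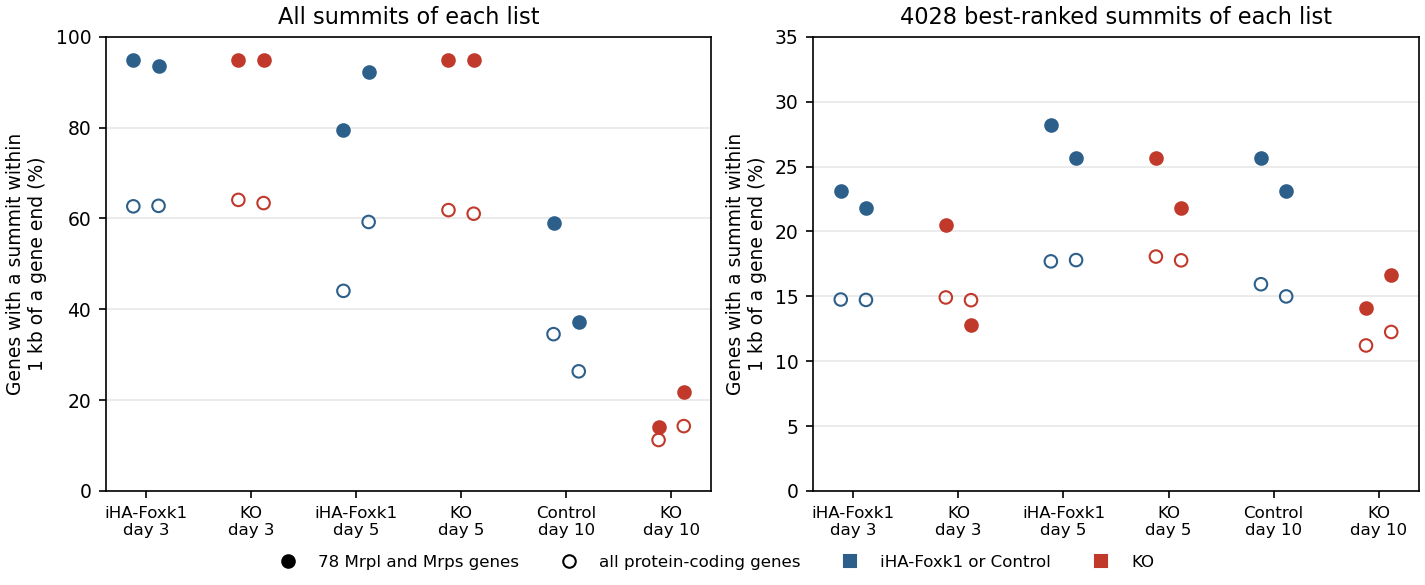
Share of genes with a summit within 1 kb of a gene end, in percent, per library (2 points a group), for the 78 Mrpl and Mrps genes (filled) and all protein-coding genes (open), in full lists (left) and in the 4028 best-ranked summits (right). In full lists the Mrpl and Mrps genes lie above all genes in every library, and at equal length KO day 3 replicate 2 is the 1 library in which they lie below.

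The genes spanned nearly the whole range of the lists. Ranks are given within a list, with 1 for the highest score. Mrpl17, a protein near the exit of the peptide tunnel, ranked 107 and 117 in KO day 3, 109 and 144 in iHA-Foxk1 day 3, 177 and 140 in KO day 5 and 90 and 176 in iHA-Foxk1 day 5. At day 10 Mrpl17 ranked 571 and 1025 in Control and 1564 and 494 in the KO. Its ranks of both genotypes overlapped at each day.

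Mrps14, a small-subunit protein with a bacterial counterpart, ranked 375 and 277 in KO day 3 and 386 and 197 in iHA-Foxk1 day 3. It ranked 304 and 434 in KO day 5, and 3086 and 503 in iHA-Foxk1 day 5, where the short list gave the poorer place. Mrps28, a small-subunit protein, ranked 183 and 314 in KO day 3 and 799 and 542 in iHA-Foxk1 day 3, without overlap. Mrpl50 and Mrpl39 completed the 5 genes with the best mean percentile at day 3. Mrpl50 ranked 1582 and 2547 in the KO, against 1050 and 582 in iHA-Foxk1, and Mrpl39 2759 and 975 against 1193 and 943.

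At the other end of the order by gene-end summits were Mrps23, Mrpl53, Mrps10, Mrps5 and Mrps18a. The gene-end summit of Mrps23 ranked 43569 and 38707 in KO day 3 and 39466 and 52224 in iHA-Foxk1 day 3, and none was listed in iHA-Foxk1 day 5 or at day 10. The annotated start of Mrps23 lies 7119 bp from the nearer gene end, and there the gene had better-ranked summits, at 22575 and 20739 in KO day 3 and 13971 and 16061 in iHA-Foxk1 day 3. Its start summits ranked 10102 and 9739 in KO day 5, 7836 and 10002 in iHA-Foxk1 day 5 and 3407 in Control day 10 replicate 1. The place of Mrps23 at the end of the order therefore holds for the gene-end window, not for its start. Mrps5, which has a bacterial counterpart, ranked 34947 and 20773 in KO day 3 and 39837 and 29269 in iHA-Foxk1 day 3. Ranks of the other 3 genes at day 3 ran from 23656 (Mrps18a, KO) to 36089 (Mrpl53, iHA-Foxk1). None of these 5 had a gene-end summit at day 10, and Mrps23 was the 1 with a start summit there.

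**Figure D2:**
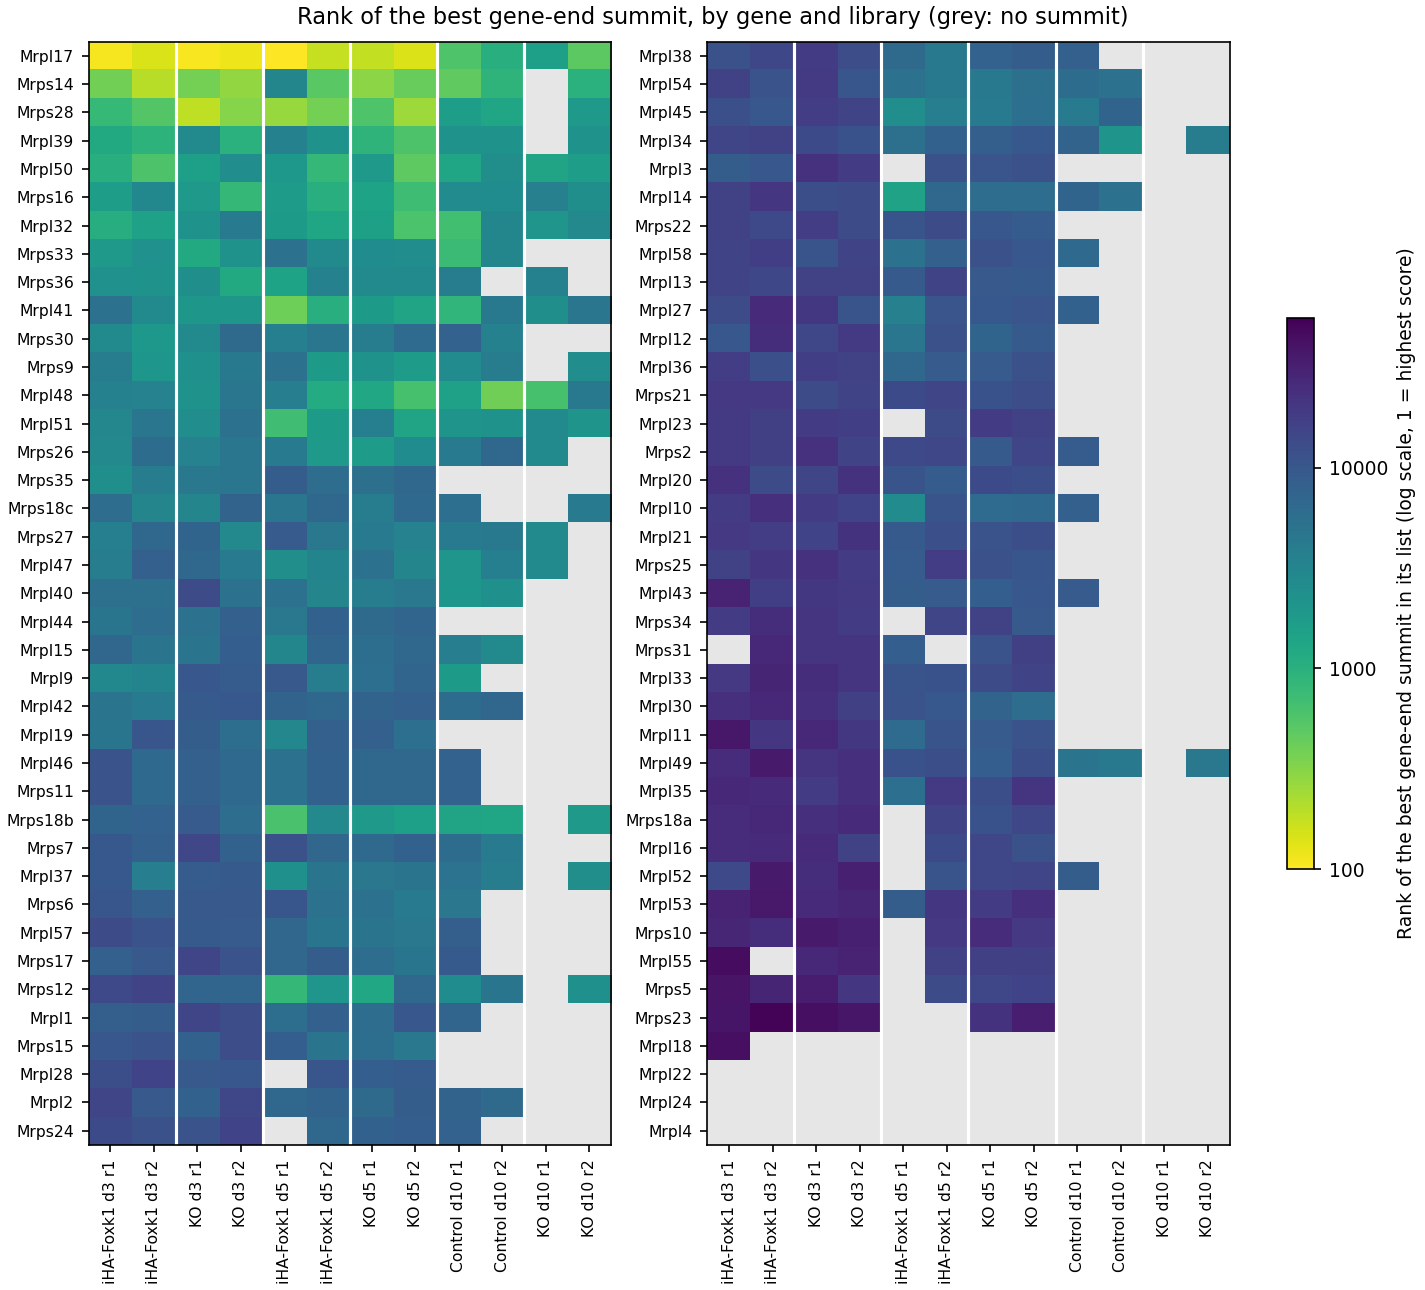
Rank of the best summit within 1 kb of a gene end for each of the 78 genes (rows, ordered by median rank at day 3) in each of the 12 libraries (columns, r1 and r2 for replicates), on a log colour scale with yellow for the best ranks and grey for no summit. Mrpl17, in the top row, has ranks of 90 to 177 in the 8 columns of days 3 and 5, and the grey area at the right of each panel shows the short day 10 lists, where 32 genes had no summit in any library.

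Only 7 genes had a gene-end summit in all 12 full lists: Mrpl17, Mrpl32, Mrpl41, Mrpl48, Mrpl50, Mrpl51 and Mrps16. They are 8.97% of the 78, and the share over all protein-coding genes was 8.18%. Within the 4028 best-ranked summits, Mrpl17, Mrpl50 and Mrps16 were present in all 12 lists, which is 3.85% against 3.66% of all genes, and 47 genes were present in none. Mrps16, a small-subunit protein with a bacterial counterpart, ranked between 719 (KO day 5 replicate 2) and 3588 (KO day 10 replicate 1).

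Mrpl4, Mrpl22 and Mrpl24, all large-subunit proteins with bacterial counterparts, had no gene-end summit in any of the 12 lists. Mrpl18, which binds the 5S ribosomal RNA in bacteria, had 1, at rank 43028 in iHA-Foxk1 day 3 replicate 1. The annotated starts of Mrpl18, Mrpl22 and Mrpl24 lie 1696, 1621 and 1413 bp inside the gene span, beyond the 1 kb window. At those starts Mrpl18 had a summit in 12 libraries, with ranks of 502 and 1254 in KO day 3 and 1208 and 824 in iHA-Foxk1 day 3. Mrpl22 and Mrpl24 each had a start summit in 8 libraries. These start summits lie outside the gene-end window, and Mrpl4 had no start in the table.

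Summits sat close to the starts. Over the 67 genes with both a start and a gene-end summit, the median position was 22 bp upstream of the start (median -22 bp, quartiles -81 and 34), with 56 of 67 within 250 bp. The median lay upstream in 41 genes and downstream in 25. In 63 genes with summits in at least 8 libraries, the positions spread over a median of 223 bp between libraries. The spread was at most 250 bp in 40 of the 63 and reached 9760 bp. Of the 67 genes, 6 had a median position more than 1 kb from the start, namely Mrpl2, Mrpl18, Mrpl36, Mrpl58, Mrps2 and Mrps23.

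**Figure D3:**
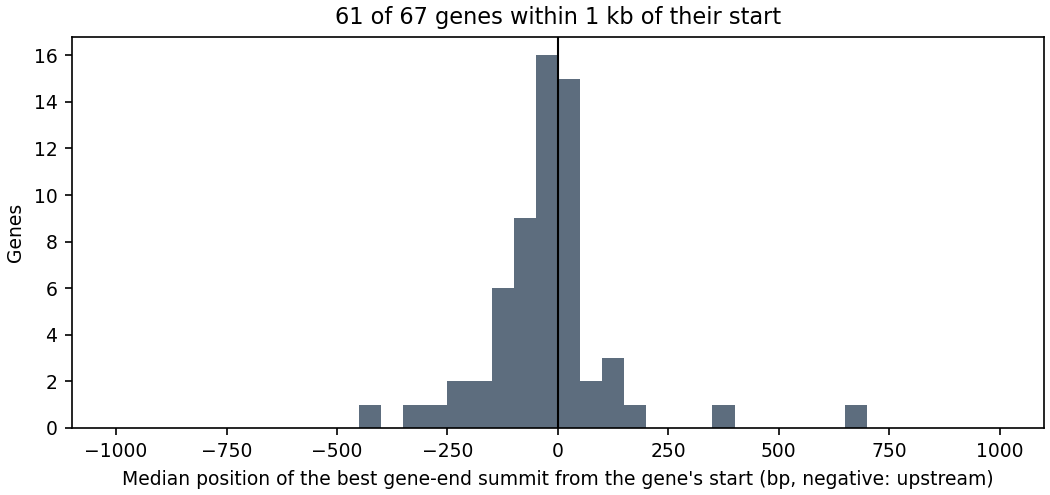
Histogram of the median position of the best gene-end summit relative to the gene's start, in bp in 50 bp bins, negative upstream, for the 61 of 67 genes within 1 kb of it. Most genes lie in the bins just beside the start, around the median of -22 bp.

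Many of these starts are shared with a neighbour on the other strand. A divergent start within 1 kb was found for 24 of the 69 genes, or 34.8%, against 8.59% of all genes with a start and 13.4% of the cytosolic ribosomal protein genes. Mrpl46 and Mrps11, which encode a large-subunit and a small-subunit protein, face each other at chr7:78783089 and chr7:78783131. Both took the same summit and so the same ranks, 8044 and 6495 in KO day 3, 11239 and 6512 in iHA-Foxk1 day 3, 6838 and 6709 in KO day 5 and 5307 and 7865 in iHA-Foxk1 day 5. They are 1 observation, not 2. Mrps12 faces Sars2, the mitochondrial seryl-tRNA synthetase. Mrpl43 faces Twnk, the mitochondrial DNA helicase, and Mrpl47 faces Ndufb5, a respiratory complex I subunit. Mrpl32 faces Psma2, a proteasome subunit. A summit in such a gap cannot be assigned to either gene.

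Presence was then compared between the genotypes of each day at equal list lengths, 53456 summits at day 3, 14519 at day 5 and 4028 at day 10. A gene was called for a genotype when both of its libraries had a gene-end summit and neither library of the other genotype did. At day 3, 0 of 74 genes were called for the KO, where 1.25% of all genes were, and 0 for iHA-Foxk1, where 0.849% were. At day 5, 0 of 62 were called for the KO (1.54% of all genes) and 0 for iHA-Foxk1 (1.92%). At day 10, 0 of 15 were called for the KO (1.88% of all genes) and 3 of 15 for Control, where 15.3% of all genes were, so the share was near the background.

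The 3 genes called for Control at day 10 were Mrpl15, Mrpl40 and Mrps33. Mrpl15, with a bacterial counterpart, ranked 3708 and 2766 in Control. Mrpl40, particular to mitochondria and facing Hira, a histone chaperone gene, ranked 2041 and 2320. Mrps33, particular to mitochondria, ranked 757 and 3097. None of the 3 had a gene-end summit in either KO list. With list lengths divided by 2, 0 were called, and with full lists of unequal length 10 were. In those full lists 34.5% and 26.3% of all genes had a gene-end summit in Control, against 11.2% and 14.3% in the KO. The share of all genes called at these lengths is not given here, so the counts are not read as a result about the Mrpl and Mrps genes.

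Differences in place between the genotypes were tested at day 3 in the 72 genes with a summit in all 4 libraries. Each gene's rank was turned into a normal score among the 12843 genes with such summits, in which 1 unit is about 1 standard deviation of genes, and limma compared KO with iHA-Foxk1. None of the 72 passed an adjusted p of 0.05 (limma, Benjamini-Hochberg over all genes), in a fit where 0.374% of all genes were called higher and 0.755% lower. At an unadjusted p under 0.05 there were 8, with 2 higher and 6 lower, or 11.1% against 12.05% of all genes. The median difference was -0.03, beside 0.0049 over all genes, with a median SE of 0.24 per gene.

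The lowest differences at day 3 were those of Mrpl3, Mrpl9, Mrps10, Mrpl42 and Mrpl50. Mrpl3, a large-subunit protein with a bacterial counterpart, ranked 22736 and 18666 in the KO, against 8652 and 10103 in iHA-Foxk1. The groups did not overlap, and the difference was -0.95 (SE 0.24, limma adjusted p = 0.0754). Mrpl9, also with a bacterial counterpart, ranked 10154 and 8929 in the KO, against 2945 and 3198 in iHA-Foxk1, again without overlap. Its difference was -0.84 (limma adjusted p = 0.118). Percentiles of Mrpl42, where 100 is the best rank, were 51.4 and 49.9 in the KO, against 71.0 and 74.5 in iHA-Foxk1.

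The highest differences at day 3 were those of Mrps12, Mrps28, Mrpl41, Mrpl14 and Mrps21. Mrps12, the counterpart of the bacterial decoding-site protein S12, ranked 7210 and 7073 in the KO, against 13975 and 15298 in iHA-Foxk1, a difference of 0.64 (limma adjusted p = 0.251). Mrps28 differed by 0.60, and its percentiles were 99.4 and 98.5 in the KO, against 95.0 and 96.8 in iHA-Foxk1. Percentiles of Mrpl41 did not overlap either, at 86.9 and 87.0 against 69.6 and 82.6. None of these differences passed the adjusted threshold.

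**Figure D4:**
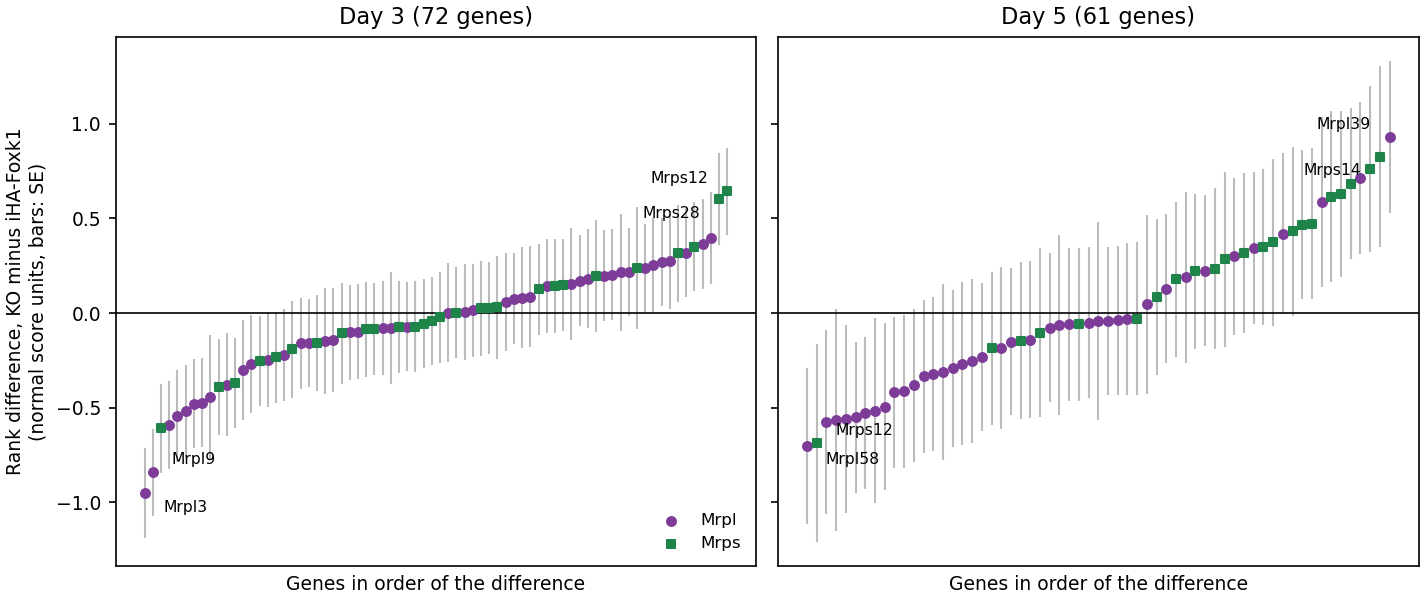
Rank difference between KO and iHA-Foxk1 in normal score units, with bars of 1 SE, for the genes fitted at day 3 (72, left) and day 5 (61, right), in order of the difference (circles Mrpl, squares Mrps). At day 3 the points run from -0.95 (Mrpl3) to 0.64 (Mrps12), and at day 5 from -0.70 (Mrpl58) to 0.93 (Mrpl39) with wider bars.

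At day 5, 61 genes had a gene-end summit in all 4 libraries, and 0 passed the adjusted threshold (limma, 0% of 9333 genes called higher and 0% lower). At an unadjusted p under 0.05 there was 1, Mrpl39, a large-subunit protein particular to mitochondria. It ranked 908 and 586 in KO and 3464 and 2196 in iHA-Foxk1, a difference of 0.93 (SE 0.40, limma adjusted p = 0.82). The median difference over the 61 genes was -0.04. The 39 Mrpl genes had a median of -0.15, with 10 positive, and the 22 Mrps genes 0.30, with 16 positive. Over all 9333 genes the median was 0.00096, with 4673 positive.

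The Mrpl median was highest in 1 library, the short one, and the part of that library's depth in the split was not tested. The median percentile of the Mrpl genes among 9228 genes was 49.2 in iHA-Foxk1 day 5 replicate 1 and 30 in replicate 2, with 39.1 and 34.2 in the KO. For the Mrps genes it was 48.4 and 52.4 in iHA-Foxk1 and 59.5 and 54.4 in the KO. Both KO values were higher, but the nearest, 54.4 and 52.4, lay closer than the replicates of KO day 3, at 47.6 and 52.4. The lowest differences, of Mrpl58, Mrps12, Mrpl27, Mrpl35 and Mrpl53, were all of genes placed higher in iHA-Foxk1 day 5 replicate 1 than in the other 3. For Mrpl35 the percentile was 46.1 there, 2.51 in the other iHA-Foxk1 library and 11.2 and 2.46 in the KO. Without iHA-Foxk1 replicate 1 the difference was 0.27 for Mrpl35, 0.058 for Mrpl27 and 0.078 for Mrpl53, and without KO day 5 replicate 2 it was 0.055 for Mrps12. Leaving out either iHA-Foxk1 library left 1 library in its group. Counts of genes called in those fits are therefore not read as a result about the Mrpl and Mrps genes.

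At day 10 the 7 genes present in all 4 lists could be fitted, and 0 passed (limma, 0% of 1815 genes called higher and 0% lower). An unadjusted limma p under 0.05 was reached by 6.17% of all genes and by 0 of the 7. Their differences ran from -0.999 (Mrpl41) to 0.47 (Mrpl50), with a median SE of 0.67. Mrpl48 ranked 1514 and 396 in Control and 625 and 4332 in the KO, so that the groups overlapped.

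The days were compared in 1 fit over the 8 libraries of days 3 and 5, with 61 of the genes among 9228. At an unadjusted limma p under 0.05 there were 13 of the 61 in iHA-Foxk1, or 21.3% against 23.7% of all genes. By the adjusted threshold, 1 of the 61 rose from day 3 to day 5 in iHA-Foxk1 and 0 fell, where 1.02% of all genes were called higher and 1.9% lower. The gene was Mrps12, which ranked 13975 and 15298 at day 3 and 819 and 2068 at day 5. Its percentiles rose from 22.9 and 19.6 to 91.6 and 79.1, a difference of 1.89 (SE 0.43, limma adjusted p = 0.0374). In the KO its percentiles were 48.0 and 49.0 at day 3 and 87.5 and 36.5 at day 5, a difference of 0.44 (SE 0.43, limma adjusted p = 0.736).

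The KO replicates of day 5 lie on both sides of the day 3 values. The difference of Mrps12 between the genotypes' day effects was -1.46 (SE 0.61, limma adjusted p = 0.841) and did not pass. The call rests on the choice of scale and on several libraries: the adjusted p was 0.0878 with percentile ranks, and 0.0966, 0.0953, 0.246, 0.277 and 0.0512 without KO day 3 replicate 1, KO day 3 replicate 2, iHA-Foxk1 day 3 replicate 1, iHA-Foxk1 day 3 replicate 2 and KO day 5 replicate 2. Without the short iHA-Foxk1 day 5 list the difference was 1.46 (limma adjusted p = 0.0245).

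**Figure D5:**
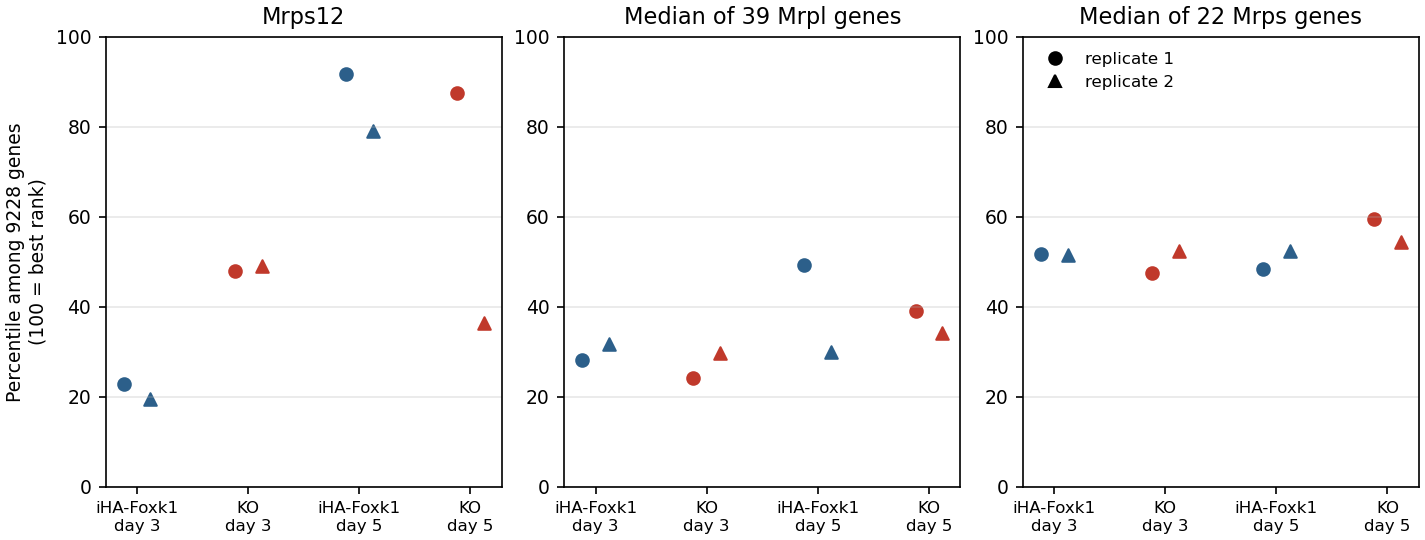
Percentile among 9228 genes (100 is the best rank) in each library of days 3 and 5, for Mrps12 (left) and as the median of 39 Mrpl genes (middle) and 22 Mrps genes (right), with circles for replicate 1 and triangles for replicate 2. Mrps12 is below 25 in both iHA-Foxk1 day 3 libraries and above 75 in both of day 5, and the Mrpl median of iHA-Foxk1 day 5 replicate 1 is the highest of its panel at 49.2.

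In the KO, 0 of the 61 genes were called between the days (0.0108% of all genes higher and 0.0542% lower, limma). At an unadjusted limma p under 0.05 there were 4, or 6.56% against 11.3% of all genes. Mrpl45, which is particular to mitochondria and lies at the tunnel exit, had KO percentiles of 12.2 and 17.2 at day 3 and 56.8 and 46.1 at day 5. Its iHA-Foxk1 percentiles were 28.2 and 35.5 at day 3 and 73.2 and 61.7 at day 5. Mrps18b had 38.3 and 55.4 at day 3 and 80.6 and 84.0 at day 5 in the KO, and 47.5 and 46.1 against 93.7 and 70.3 in iHA-Foxk1. In both genes no day 5 library overlapped day 3 within a genotype, and neither was called (limma adjusted p = 0.233 and 0.319 in the KO, 0.113 and 0.106 in iHA-Foxk1). They were picked because they were called in the KO, with Mrpl30, when the short iHA-Foxk1 list was left out. That fit left a lone library in the iHA-Foxk1 day 5 group. All genes were called there at a share no lower than that of the Mrpl and Mrps genes. Those calls are therefore not read as a result about the Mrpl and Mrps genes. No gene of the 61 passed the test of a genotype difference between the day effects (limma, 0% of all genes called higher and 0% lower). For that test 2 of the 61 had an unadjusted limma p under 0.05, or 3.28% against 5.31% of all genes.

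The other genes of mitochondrial translation, a list of 56 initiation, elongation and release factors, tRNA synthetases and ribosome assembly proteins, was described in the same way. In full lists 50 to 53 of the 56 had a gene-end summit at day 3, and 75% had one in all 8 libraries of days 3 and 5. By rank, 0 of 50 were called between genotypes at day 3, 0 of 42 at day 5 and 0 of 5 at day 10 (limma), with 6, 1 and 0 at an unadjusted p under 0.05. By presence, Mterf4, a ribosome assembly factor, was the 1 gene called for the KO at day 5. Sars2 was the 1 gene of 42 called between the days in iHA-Foxk1, through the summit it shares with Mrps12.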

How the data were processed

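ATAC-seq of 12 mouse embryoid body libraries was used as deposited. Bowtie2 2.2.4, MACS2 and mm10 are named in the submitters' processing notes, and the version of MACS2 is not given in the sources used here. Each deposited list holds summit positions and a score, a −log10 of a p-value or q-value, and which of the pair is not given in the sources used here. Lists were called per library. They hold no reads, so the depth behind a summit is unknown and a score served only to place a summit in its own list. Summits off chromosomes 1 to 19 and X were left out.

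Genes came from a RefSeq table of GRCm38.p6, matched by symbol. All 56 listed mitochondrial translation genes were matched. A gene took its best-ranked summit within 1 kb of either end. Presence was compared at equal list lengths. Ranks were turned into normal scores among genes with a summit in every library of a fit and tested with limma 3.58.1 in R 4.3.3, with Benjamini-Hochberg adjustment over all genes and a threshold of 0.05. The fit was also run on simulated data with a common spread for all genes and independent libraries, unlike these lists, and no result here rests on it. Counts and figures were made with pandas 2.3.3 in Python 3.11.15.

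Members, lists and motifs were chosen with earlier results of these data known. Genes were named if called, if absent from all 12 lists or present in all 12, if among the 5 highest or lowest differences of a day, or if among the 5 best or worst mean percentiles of day 3. Names given with a shared start, a start summit or a changed call were chosen after their values were seen. Replicate numbers did not pair the libraries: deviations of same-numbered libraries correlated at -0.01, -0.07 and 0.01 at days 3, 5 and 10. Alternatives covered the window, list length, start alone, rank scale, missing values, prior, replicate block and left-out libraries. Those for day 5 against day 3 were chosen after seeing the data.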

Additional observations from a re-analysis of the deposited data

How the results depend on the processing

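Calls between genotypes by rank stayed at 0 at days 3 and 10 under every alternative run, and at day 5 under all but 1: leaving out 1 library at a time gave 0 to 18 there. The replicate block left 0 calls among these genes at each day, while it moved calls over all genes from 145 to 218 at day 3 and from 0 to 13 at day 5. The mean difference in genes present (KO minus the other arm, 0.5 at day 3, 1.5 at day 5 and -7.0 at day 10) ran from 0 to 1 at day 3 and from -8.0 to -5.5 at day 10 without single libraries. It was 1.5 at day 3 with a 500 bp window, 5 and -3.5 at days 3 and 10 with list lengths divided by 2, and 7 and -23.5 at days 5 and 10 with all summits. Calls by presence without single libraries ran from 0 to 1 for the KO and 0 to 1 for iHA-Foxk1 at day 3, 1 to 3 and 0 to 2 at day 5, and 0 to 2 for the KO and 4 to 8 for Control at day 10. With list lengths divided by 2 there were 2 for the KO at day 3, 1 for iHA-Foxk1 at day 5 and 0 for Control at day 10, and with all summits 1 for the KO at day 5 and 10 for Control at day 10. The share of all genes called under these alternatives is not given here, so these presence counts only describe how calls moved. The median rank difference at day 3 ran from -0.088 to 0.011. Between the days, calls ran from 0 to 23 in iHA-Foxk1, 0 to 4 in the KO and 0 to 9 for their difference, with 0 in iHA-Foxk1 by percentile ranks, and the median difference in iHA-Foxk1 was -0.041 with a 500 bp window. The highest of these call counts between the days all came without iHA-Foxk1 day 5 replicate 2, with the short list left alone in its group. Calls over all genes rose there too in each of these comparisons, to shares close to those of the Mrpl and Mrps genes. The counts between the days therefore describe how calls moved and are not read as a result about the Mrpl and Mrps genes. Directions reversed at day 5 without single libraries for Mrps12 (-1.43 to 0.055), Mrpl27 (-1.24 to 0.058), Mrpl35 (-1.48 to 0.27) and Mrpl53 (-1.23 to 0.078). At day 10 they reversed for Mrpl48 (-2.64 to 0.57), Mrpl32 (-1.33 to 0.45), Mrps16 (-0.89 to 0.21), Mrpl51 (-0.31 to 0.14) and Mrpl17 (-0.56 to 0.845), and Mrps16 was 0.15 with missing values set below the lowest rank. The cause was not tested. A library left alone in its group was assumed to vary like the others. Lists without reads limit what can be seen: a missing summit is a score below the caller's threshold, not closed chromatin, and short lists such as those of day 10 miss weaker sites.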
